A study of Mus musculus with 3 samples.

Results

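The transcripts that encode the proteasome were examined in RNA immunoprecipitation sequencing (RIP-seq) of the m6A reader protein YTHDF2. Members were taken by name, as the rows of the count table whose symbol is Psm followed by a letter from a to g and a number, and symbols carrying -ps were left out. This gave 51 of the 49997 genes in the table. Of these, 49 encode proteasome subunits, activators, inhibitors or assembly factors, namely 19 of the core, 17 of the cap and 13 activator or assembly genes. The remaining 2 names, Psmc3ip and Psme3ip1, belong to other proteins and are described apart.

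The cells were E14 mouse embryonic stem cells (ESCs) treated for 24 h with doxycycline (Dox), and this holds for all 3 libraries, 1 input and 2 YTHDF2 immunoprecipitation (IP) libraries. In the cell system of the study, Dox switches on a Dux transgene, which pushes the cells into a state like that of the 2-cell embryo, and a Mervl promoter drives a tdTomato reporter. The labels name neither transgene, and whether the line is a single clone is not given in the sources used here. No IP with a control antibody was analysed here, and the comparison asks how much of a transcript was recovered with YTHDF2 relative to its amount in the input.

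The proteasome degrades proteins tagged with ubiquitin. Its core is a barrel of stacked rings, with alpha subunits that gate the entrance and beta subunits of which some cut peptides. A cap with a ring of ATPases and a set of non-ATPase subunits recognises, unfolds and feeds in the substrate, other activators can sit in its place, and dedicated chaperones build the particle. Embryonic stem cells are known for high proteasome activity. YTHDF2 binds RNA that carries N6-methyladenosine (m6A), often within a GGAC or GGACT sequence, and promotes its decay.

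Short stretches around GGACT are shown for members that lie at the ends of the results below or near equal recovery. They are also shown for a pair of near-identical genes whose reads are hard to separate. Each was read from the RefSeq transcript of the gene on GRCm38.p6, in the sense of the mRNA, at the GGACT nearest to the stop codon, with 10 bases on either side. Capitals mark the GGACT, which was searched on the sense strand alone.
Psmd6: gtgtgggtgtGGACTtcattgacca
Psmd11: gtaaagtagtGGACTccctctacag
Psmc6: agtccaagctGGACTacaaacctgt
Psmd7: tggcttgaagGGACTgaactccaag
Psmb5: cagatctgctGGACTtgggtccggg
Psmb9: agtaccgtgaGGACTtgttagcgca
Psme2: ccagaagtctGGACTctcaaagaga
Psme2b: ccagaagtctGGACTctcaaagaga
All of these lie in coding sequence. The GGACT of Psmd6, the member with the lowest ratio of IP to input, is at chr14:14114133-14114137 on the minus strand. That of Psmd11 is at chr11:80471558-80471562 on the plus strand, 32 bases before the end of the stop codon, and that of Psmc6 is at chr14:45348683-45348687 on the plus strand, 14 bases before it. Psmd7 and Psmb5, with ratios near that of equal recovery, carry theirs at chr8:107581248-107581252 and chr14:54617904-54617908, both on the minus strand. Psmb9, with the highest ratio, carries it at chr17:34183665-34183669 on the minus strand. The windows of Psme2 and Psme2b have the same letters, at chr14:55589322-55589326 and chr11:48945780-48945784 on the minus strand, and their coding sequences are 99.3% identical. A match describes the sequence and is not a measured m6A site, and 93.4% of 6812 well-covered protein-coding genes hold GGACT in their exons.

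The libraries held between 35259827 and 36986994 counts, and 19601 genes passed the filter on low counts. All 8 markers of pluripotent stem cells were present in the input, at 153 to 2946 CPM per kb (counts scaled to library size and to kilobases of exon), and 5 markers of the 2-cell-like state lay between 39.0 and 441. The 4 markers of fibroblast feeders lay between 0.0379 and 16.2 CPM per kb, with Thy1 the highest and both collagens under 1. Trophoblast markers lay between 0 and 7.01, with Elf5 at 0 and Cdx2 at 2 counts, and endoderm markers between 0.272 and 1.26. The summed counts of the fibroblast markers were 1197 in the input against 748 and 854 in the IP, a sum carried by Thy1 (994 in the input), while Pdgfra went the other way, from 121 to 189 and 243. Those of the trophoblast markers were 924 against 1908 and 1870, of which Eomes alone made up 922, 1891 and 1862. The endoderm markers summed to 298 against 494 and 319, and those of the 2-cell-like state to 73190 against 113414 and 114184. The pluripotent markers summed to 302126 against 312784 and 316038, with single genes going both ways. The part of other cell types in the results was not tested. As the input has no replicate, all tests rest on the spread between the 2 IP libraries, which the labels do not tie to separate cultures. In bulk RNA, fewer cells of a type and less RNA per cell cannot be told apart.

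Proteasome transcripts were mostly recovered less in the IP than in the input. They took 0.882% of all counts in the input (95% Wilson interval 0.879 to 0.885), 0.561% in IP replicate 1 (0.558 to 0.563) and 0.574% in IP replicate 2 (0.572 to 0.576). The intervals take each count as independent and cover counting error only, and as both mates of a read pair were counted they are too narrow even for that. Both IP libraries therefore lay below the input by more than they differed from each other. The decrease was seen in each part of the particle, since the core went from 0.358% to 0.236% and 0.241%, the cap from 0.436% to 0.270% and 0.279%, and the activator and assembly genes from 0.0879% to 0.0542% and 0.0545%.

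Of the 49 proteasome genes, 48 passed the filter, and Psmb8 was left out with 0 input counts and with 2 and 0 counts in the IP, given here and below in the order of IP replicates 1 and 2. A gene was called depleted or enriched when edgeR's quasi-likelihood test gave an adjusted p below 0.05 with more than a 2-fold difference. By this rule 14 of the 48 (29.2%) were depleted from the IP, where 13% of all tested genes were. Only Psmb9 (2.08%) was enriched, where 15.0% of all tested genes were. By the adjusted p alone, whatever the fold change, 38 (79.2%) were lower, against 28.9% of all tested genes, and 3 (6.25%) were higher, against 28.4%. Another 7 did not pass the test. In both IP libraries taken alone, 39 (81.2%) lay below the input and 4 above it, against 45.3% and 44.2% of all tested genes. The median log2 fold change of the 48 genes was −0.79, a 1.72-fold decrease, with −0.86 in IP replicate 1 and −0.69 in IP replicate 2, while all tested genes had a median of 0.0063 and an interquartile range from −0.72 to 0.81. Because proteasome genes are well covered, they were also set beside the 6812 protein-coding genes whose mean count was 1000 or more, a group chosen after their values were seen. There 13.8% were depleted and 16.1% enriched, 43.6% were lower and 41.9% higher at any fold change, 49.3% lay below and 47.6% above the input in both IP libraries, and the median was −0.02. With the dispersion fixed at 0.1, in place of the estimate from the 2 IP libraries, 3 of the 48 were depleted (Psmd6, Psmd11 and Psmc6). These 3 were then also the only genes lower at any fold change, and 0 were higher. Log2 fold changes were also formed with the trend of all genes with GC content, or with exon density, subtracted. They have no test, are called GC-adjusted and density-adjusted below, and are given at least where they moved a value that passed the test by over 1.5 times or across 2-fold.

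**Figure D1:**
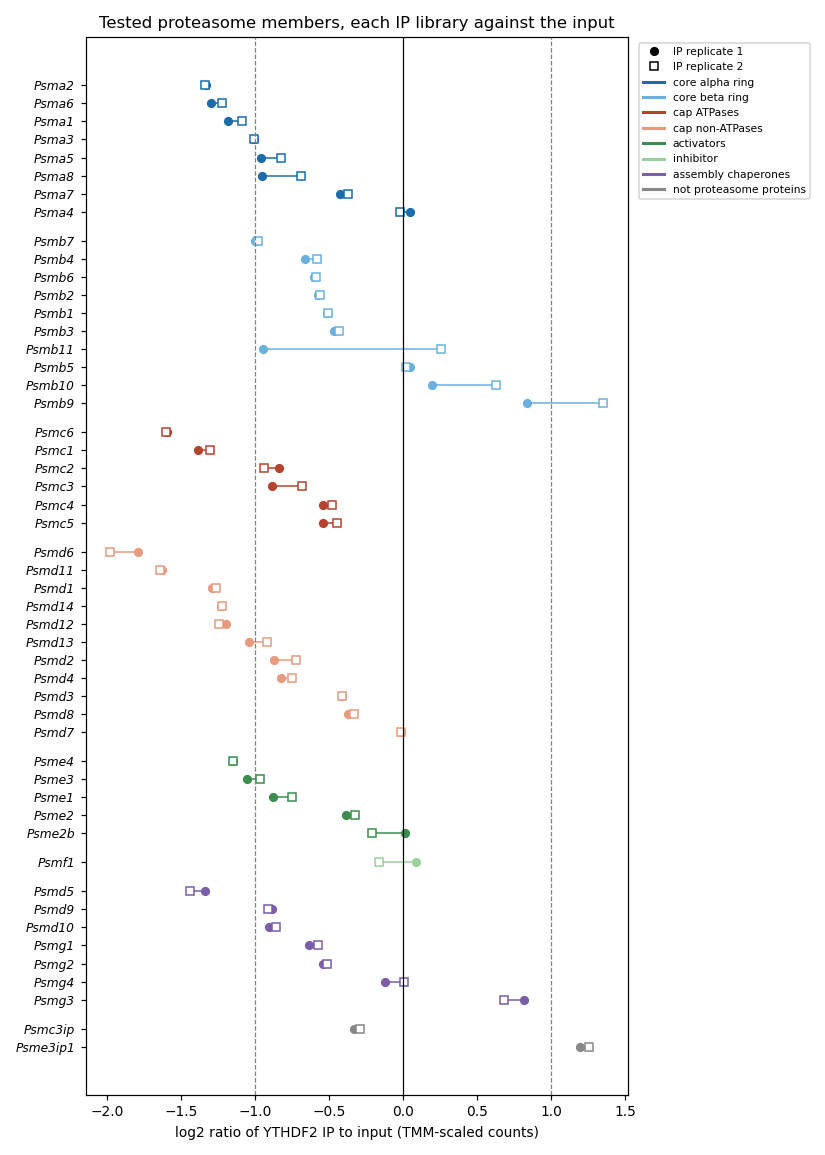
Log2 ratio of each YTHDF2 IP library to the input (x axis, TMM-scaled counts with 0.5 added) for the 48 tested proteasome genes and the 2 other genes with such names, by class. Filled circles are IP replicate 1, open squares IP replicate 2, and dashed lines mark 2-fold differences. Most points lie left of 0, and those of all 17 cap genes do in both libraries.

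The cap had the lowest median of the 3 parts. All 17 cap genes lay below the input in both IP libraries, 16 passed the test in that direction, 7 were depleted over 2-fold, and the median log2 fold change was −0.89. Psmd6, a subunit of the lid that covers the ATPases, had 4945 input counts against 1456 and 1297 IP counts. Its log2 fold change of −1.88 ± 0.0801 (SE), or 3.69-fold lower, was the lowest of all members. Psmd11, another lid subunit, had 7228 input counts against 2384 and 2392 IP counts, a log2 fold change of −1.64 ± 0.0665. Psmd12, also of the lid, had 7879 input counts against 3511 and 3445 IP counts, which gave a log2 fold change of −1.22 ± 0.0629. Psmd14, the lid enzyme that removes ubiquitin from the substrate, had 5440 input counts against 2358 and 2411 IP counts, which gave a log2 fold change of −1.23 ± 0.0700. For each of these lid genes both IP libraries were low and close to each other, and neither came near the input. Psmd1, a large scaffold subunit at the base of the cap, showed the same pattern, with 9223 input counts against 3847 and 3976 IP counts, and a log2 fold change of −1.28 ± 0.0608. The adjusted p-values of these 5 genes were 5.75e-18 or lower in edgeR's test. Psmd6 and Psmd11 stayed over 2-fold lower after either adjustment, but Psmd14 (GC-adjusted −0.79, density-adjusted −0.76) and Psmd12 (−0.95 and −0.86) did not, and Psmd1 was at −0.81 density-adjusted.

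Not all lid genes were low. Psmd7, the lid partner with which the Psmd14 protein forms a pair, had 14977 input counts against 15158 and 15324 IP counts, a log2 fold change of −0.01 ± 0.0526 with an adjusted p of 0.835. It was the only cap gene that did not pass the test, and its values were nearly level with the input in both libraries. Its direction depends on scaling, with 0.14 under scaling to TPM and 0.08 under total counts. Psmd13, of the lid as well, lay just under the 2-fold threshold at a log2 fold change of −0.98 ± 0.0669, and Psmd3 and Psmd8 were lower by less, at log2 fold changes of −0.41 and −0.35. GC-adjusted, Psmd13, Psmd3 and Psmd8 were at −1.17, −0.91 and −0.60, and density-adjusted at −0.47, −0.13 and −0.18, where Psmd7 was at 0.13. The median over the 8 lid genes, a subset formed after their values were seen, was −1.10, or −0.93 GC-adjusted and −0.61 density-adjusted.

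The cap subunits Psmd2 and Psmd4, which receive ubiquitylated substrates, lay in the middle of its range. Psmd2, a scaffold and docking subunit, had 15389 input counts against 8559 and 9644 IP counts, a log2 fold change of −0.80 ± 0.0580. Psmd4, which binds ubiquitin chains, had 11291 input counts against 6501 and 6945 IP counts, a log2 fold change of −0.79 ± 0.0577. Both lay below the input in each IP library by more than the IP libraries differed, but by less than 2-fold. In edgeR's test their adjusted p-values were 3.17e-14 and 1.06e-14. GC-adjusted they were at −0.96 and −1.08, and density-adjusted at −0.43 and −0.35.

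All 6 ATPases of the cap, the motor that unfolds substrates, passed the test as lower. Psmc6 was the lowest, with 6913 input counts against 2331 and 2360 IP counts, a log2 fold change of −1.60 ± 0.0671, or 3.03-fold. Psmc1 followed with 10848 input counts against 4237 and 4542 IP counts, at a log2 fold change of −1.35 ± 0.0599. These were the only ATPases over 2-fold lower. Psmc2 and Psmc3 had log2 fold changes of −0.89 and −0.78. Psmc5 was the least changed, with 11222 input counts against 7859 and 8516 IP counts, and a log2 fold change of −0.50 ± 0.0576, next to Psmc4 at −0.51. Density-adjusted, Psmc5 was at 0.040, Psmc4 at −0.047, Psmc3 at −0.34, Psmc2 at −0.46 and Psmc1 at −0.91, while GC-adjusted Psmc6 was at −1.05 and Psmc3 at −1.08. The 6 subunits, which assemble into a single ring, thus spanned more than 1 log2 unit in recovery before adjustment.

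In the core, 13 of 18 tested genes were lower, 4 of them over 2-fold, 2 were higher and 3 did not pass, with a median log2 fold change of −0.58. All 4 depleted core genes were alpha subunits. GC-adjusted, Psma6 was still over 2-fold lower (−1.11), while Psma2, Psma1 and Psma3 were at −0.96, −0.70 and −0.40. Density-adjusted, none of the 4 was, with Psma6 at −0.83, Psma2 at −0.81, Psma1 at −0.65 and Psma3 at −0.81. Psma2 had 8999 input counts against 3644 and 3676 IP counts, and a log2 fold change of −1.34 ± 0.0611. Psma6 had 10802 input counts against 4484 and 4783 IP counts, at a log2 fold change of −1.26 ± 0.0596, and Psma1 had 8560 input counts against 3837 and 4171 IP counts, at a log2 fold change of −1.14 ± 0.0626. Psma3 was at the threshold, with 8090 input counts against 4108 and 4162 IP counts and a log2 fold change of −1.01 ± 0.0614, and its 2-fold call was lost under total-count and TPM scaling and with no filter on low counts, as that of Psma1 was under TPM scaling. In these genes the IP libraries were low and lay close together. Psma5 and Psma7 were lower by less, at log2 fold changes of −0.89 (density-adjusted −0.45) and −0.40 (GC-adjusted −0.88, density-adjusted −0.25). Psma8, the alpha subunit of testis proteasomes and a relative of Psma7 with 74.7% identity in coding sequence, was present at 1032 input counts against 543 and 661 IP counts, at a log2 fold change of −0.82 ± 0.132 (GC-adjusted −0.45). Psma4 stood level with the input, with 7604 input counts against 8021 and 7771 IP counts, a log2 fold change of 0.01 ± 0.0598 (adjusted p 0.856), though it was at 0.24 GC-adjusted and 0.50 density-adjusted. Part of its exons, 9.74% of the bases, overlap AY074887 on the opposite strand, and strand was not used in counting.

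No beta subunit was depleted over 2-fold, and 6 of the 10 tested were lower at any fold change. The subunits that cut peptides were spread over the range. Psmb7, of the trypsin-like site, had 13877 input counts against 7059 and 7271 IP counts, a log2 fold change of −0.99 ± 0.0551 that lay just inside 2-fold. Psmb6, of the caspase-like site, had 14562 input counts against 9792 and 10011 IP counts, at a log2 fold change of −0.60 ± 0.0538. Psmb5, of the chymotrypsin-like site, had 3951 input counts against 4154 and 4147 IP counts, at a log2 fold change of 0.03 ± 0.0689 (adjusted p 0.728). The log2 fold changes of the 3 catalytic subunits of the standard core, whose proteins are built in equal number, thus lay farther apart than their SEs, though the differences between genes were not tested. For Psmb7, Psmb6 and Psmb5 the values were −0.92, −0.78 and −0.34 GC-adjusted, and −0.40, −0.32 and 0.07 density-adjusted. Of the bases in Psmb5 exons, 12.5% overlap the microRNA gene Mir686. The structural subunits Psmb4, Psmb2, Psmb1 and Psmb3 had log2 fold changes between −0.63 and −0.45, and density-adjusted ones of −0.18, −0.15, −0.20 and 0.054. Psmb3 was at −0.70 GC-adjusted. The median was −1.01 over the 7 alpha subunits of the standard core and −0.57 over its 7 beta subunits, sets formed after their values were seen, and this difference was not tested. GC-adjusted, the medians were −0.88 and −0.70, so the gap went from 0.44 to 0.19, and density-adjusted they were −0.65 and −0.18.

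The inducible beta subunits of the immunoproteasome replace the catalytic ones in cells exposed to interferon. Here their counts were low. Psmb8 and Psmb9 also lie on alternate contigs, and reads mapping to several places were left out. What this took from their counts was not tested. Psmb9, the counterpart of Psmb6, had 36 input counts against 66 and 96 IP counts, and was the only proteasome gene called as enriched, at a log2 fold change of 1.13 ± 0.454 (adjusted p 0.0329). Both IP libraries were above the input, but at ratios of 0.84 and 1.35 on the log2 scale. The call was lost with DESeq2 (adjusted p 0.205) and with a fixed dispersion (adjusted p 0.223), and the log2 value was 0.82 once the GC trend was subtracted and 0.85 when IP replicate 2 was left out. Psmb10, the counterpart of Psmb7, had 360 input counts against 421 and 577 IP counts, at a log2 fold change of 0.43 ± 0.180 (adjusted p 0.0409), which did not pass with DESeq2 (adjusted p 0.238). Without IP replicate 2 its log2 fold change was 0.20, and it was 0.064 GC-adjusted and 0.78 density-adjusted. Psmb8, the counterpart of Psmb5, was at or under the floor of 3 counts in every library. Psmb11, of thymus proteasomes, had 8 input counts against 4 and 10 IP counts, too few to give a direction (adjusted p 0.908).

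Among the 13 activator and assembly genes, 9 were lower, 3 of them over 2-fold, Psmg3 was higher, and 3 did not pass, with a median log2 fold change of −0.60. Psme4, which encodes the large activator PA200, had 6715 input counts against 3084 and 3131 IP counts, at a log2 fold change of −1.15 ± 0.0653 (GC-adjusted −0.62, density-adjusted −0.90). Psme3, the nuclear member of the PA28 family, had 9495 input counts against 4667 and 5020 IP counts, at a log2 fold change of −1.01 ± 0.0607. Its log2 fold change was −0.97 without IP replicate 1 and −0.93 density-adjusted, and its 2-fold call was lost under total-count and TPM scaling and with no filter on low counts. Psme1 and Psme2 encode the partners of the interferon-inducible PA28 activator. Psme1 had 2140 input counts against 1185 and 1313 IP counts, at a log2 fold change of −0.82 ± 0.0984 (GC-adjusted −1.04, density-adjusted −0.10), while Psme2 had 807 and then 629 and 667, at a log2 fold change of −0.36 ± 0.133 (adjusted p 0.0207). The test of Psme2 was not passed with DESeq2 (adjusted p 0.180), TPM scaling (0.193) or total counts (0.0953), and its log2 fold change was 0.36 density-adjusted and −0.58 GC-adjusted. Psme2b, a copy of Psme2 in a single exon, stayed at 222, 228 and 199 counts, at a log2 fold change of −0.10 ± 0.240 (adjusted p 0.761). Reads that map to both copies were not counted, which makes the values of Psme2 and Psme2b uncertain. Of the exonic bases of Psme2b, 24.5% also overlap 9930111J21Rik1 on the same strand. Psmf1, the inhibitor protein PI31, had 1386 input counts against 1502 and 1279 IP counts, on either side of the input, at a log2 fold change of −0.03 ± 0.110 (adjusted p 0.815). Of its exonic bases, 18.2% overlap Tmem74b on the opposite strand.

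The chaperones that build the particle included lower, level and higher genes. The chaperones of the cap base, Psmd5, Psmd9 and Psmd10, were all lower. Psmd5 had 3194 input counts against 1287 and 1217 IP counts, at a log2 fold change of −1.39 ± 0.0889, the lowest of the chaperones. Psmd9 had 1052 and then 580 and 579, at a log2 fold change of −0.90 ± 0.128 (GC-adjusted −1.11, density-adjusted −1.02), and Psmd10 had 709 and then 385 and 404, at a log2 fold change of −0.89 ± 0.151 (GC-adjusted −0.39). The chaperones of the alpha ring did not share a direction. Psmg1 and Psmg2, which act as a pair, were lower at log2 fold changes of −0.60 ± 0.0847 and −0.53 ± 0.0905, or −0.21 and −0.28 density-adjusted. Of the other pair, Psmg4 did not pass the test, with 1190 input counts against 1114 and 1240 IP counts (log2 fold change −0.06 ± 0.112, adjusted p 0.698, GC-adjusted −0.36, density-adjusted 0.21). Psmg3 rose, with 576 input counts against 1034 and 955 IP counts, at a log2 fold change of 0.75 ± 0.132, or 1.68-fold (adjusted p 5.91e-06). It was the only gene of the 3 higher ones that kept an adjusted p under the threshold with DESeq2 (0.000605), but with a fixed dispersion the adjusted p was 0.401, and the GC-adjusted log2 fold change was 0.39.

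Psme3ip1, which encodes a protein that binds PSME3 and is no proteasome subunit, had 3539 input counts against 8290 and 8757 IP counts. It was enriched 2.34-fold, with a log2 fold change of 1.23 ± 0.0654 (adjusted p 8.57e-19), while Psme3 itself was depleted. Of its exonic bases, 13.8% overlap other genes. Psmc3ip, which acts in meiotic recombination, had 1758 input counts against 1425 and 1489 IP counts, at a log2 fold change of −0.31 ± 0.0982 (adjusted p 0.0066), which did not pass with DESeq2 (adjusted p 0.0755), TPM scaling (0.174) or total counts (0.0646), and was −0.47 GC-adjusted and 0.061 density-adjusted.

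Levels were compared between genes as CPM per kb of exon. In the input the 14 genes of the standard core ran from 78.5 for Psma3 to 440 for Psmb4, and the 17 cap genes from 68.9 for Psmd11 to 265 for Psmd7. The ATPases spanned 112 to 248. Activator and assembly genes ran from 5.89 for Psme2b to 84.7 for Psme3, a range that overlaps the others. Their median of 23.4 was lower than that of the cap (129) and of the standard core (241). Psma8 lay at 14.7, Psmb10 at 8.02, Psmb9 at 0.954 and Psmb11 at 0.0533. Across the 17 cap genes, the log2 fold change was higher where the log2 level in the input was higher, at Pearson r 0.73 and Spearman rho 0.74. Across the 18 core genes, which include Psmb9, Psmb10 and Psmb11 with their low counts, they were −0.55 and −0.47, and across all 48 proteasome genes −0.39 and −0.14. At a mean count of 1000 or more they were 0.074 and 0.20 across 39 proteasome genes, against −0.34 and −0.35 across the 6812 protein-coding genes. These correlations are descriptions across genes that share the 3 libraries, and the input count enters both axes.

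**Figure D2:**
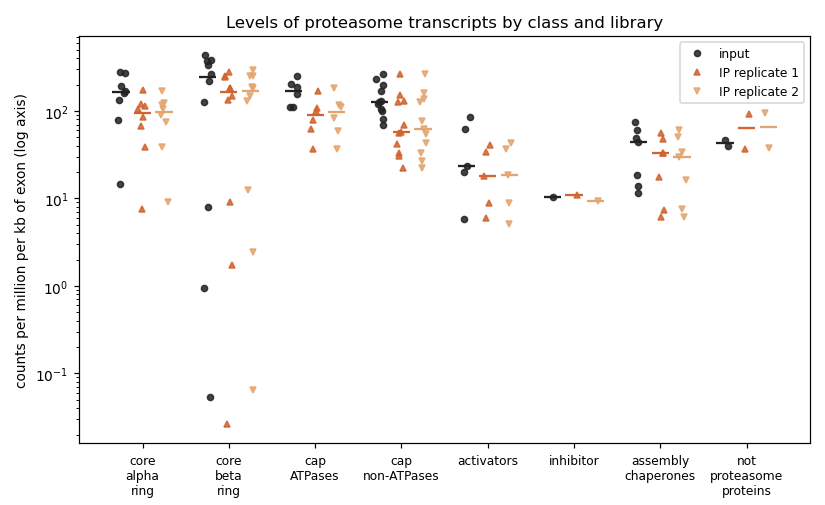
Level of each proteasome gene and of the 2 other genes with such names, in CPM per kb of exon (log axis) by class. The input is shown as circles and IP replicates 1 and 2 as triangles, where each point is a gene and short lines are medians. Psmb8, at 0 in the input, is not drawn. Medians of the alpha ring, beta ring and both parts of the cap lie lower in both IP libraries than in the input.

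The members shared features that their names did not fix. Their exons were short and dense, with a median of 6.34 exons per kb against 3.12 in the well-covered protein-coding genes, and a median of 1406 exonic bases against 3602. Median GC content was alike, at 50.3% and 50.4%. Across the 48 tested genes, the log2 fold change was higher at higher GC content (Pearson r 0.60, Spearman rho 0.64) and weakly lower at higher exon density (−0.28 and −0.29). The same directions were found over the 6812 protein-coding genes, at 0.39 and 0.37 for GC content and −0.31 and −0.34 for exon density. In the 8 proteasome genes under 45% GC the median was −1.14, and it was −0.94 in the 16 from 45 to 50%, −0.60 in the 17 from 50 to 55%, and 0.03 in the 7 from 55% up. The protein-coding genes in the same ranges had medians of −0.59, −0.19, 0.11 and 0.42, each higher than that of the proteasome genes. By exon density the medians of the proteasome genes did not fall in step. They were −0.16 in the 2 genes under 2 exons per kb, −0.82 in the 7 from 2 to 4, −0.52 in the 14 from 4 to 6, −0.80 in the 17 from 6 to 8, and −0.90 in the 8 with 8 or more. Those of the protein-coding genes were 0.49, 0.03, −0.28, −0.46 and −0.61. The alpha subunits of the standard core had a median GC content of 45.6% and the beta subunits 52.0%.

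**Figure D3:**
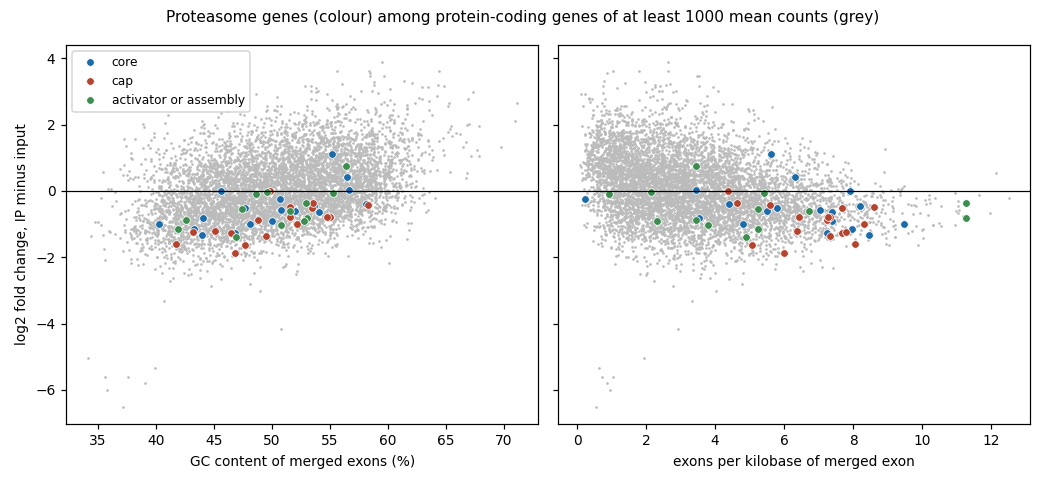
Log2 fold change of IP over input (y axis) against GC content of the merged exons in percent (left) and exons per kb of merged exon (right). Grey points are the 6812 protein-coding genes with mean counts of 1000 or more, and coloured points are the 48 tested proteasome genes by part of the particle. Coloured points sit mostly in the lower part of the grey cloud at the same GC content.

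When the trend of all genes with GC content was subtracted, the median of the proteasome genes was −0.77, and with the trend with exon density subtracted it was −0.37. After the first, 13 proteasome genes were over 2-fold lower, namely 8 of the 14 depleted ones and 5 others (Psmc3, Psmd4, Psmd9, Psmd13 and Psme1), while Psmd12, Psmd14, Psme4, Psma1, Psma2 and Psma3 were not. After the second there were 5, namely Psmd6, Psmd11, Psmc6 and Psmd5 of the 14, and Psmd9. Of the 41 members that passed the test, the log2 fold changes of 14 moved by more than 1.5 times or changed sign with the GC trend subtracted, and those of 27 did with the exon-density trend subtracted. GGACT was absent from the exons of 9 tested members, among them the depleted Psma1 and Psma2, and these had a median log2 fold change of −0.82. In the 39 members with GGACT the median was −0.78. The density of GGACT showed next to no correlation with recovery among members (Pearson r −0.0046, Spearman rho −0.0097), whereas over the 6812 protein-coding genes both coefficients were 0.20. For the shorter GGAC, which takes in every GGACT and was also counted on the sense strand, recovery was higher at higher density. The coefficients were 0.34 and 0.30 over the 48 members, 0.39 and 0.32 over the 18 core genes and 0.61 and 0.58 over the 17 cap genes. Over the protein-coding genes both were 0.30. Those genes have a mean count of 1000 or more. Over the 39 members at that level, GGAC gave 0.23 and 0.20, and GGACT gave −0.15 and −0.039. GC content moved with recovery as well, and its part in the GGAC values was not tested.

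Other genes of the ubiquitin and proteasome pathway were taken from a list of 33, of which 32 were tested and Paaf1 was not analysed here. Of the 32, 11 (34.4%) were depleted and 3 (9.38%) enriched, against 13% and 15.0% of all tested genes. At any fold change 23 (71.9%) were lower and 6 (18.8%) higher, against 28.9% and 28.4%, and the median log2 fold change was −0.60. The cap subunits whose names fall outside the rule were lower by less than 2-fold or did not pass the test. The ubiquitin receptor Adrm1 had 11740 input counts against 8693 and 8992 IP counts, at a log2 fold change of −0.45 ± 0.0555, which was −1.02 GC-adjusted and −0.035 density-adjusted. The small lid subunit Sem1 had 3335 and then 2346 and 2380, at a log2 fold change of −0.54 ± 0.0761 (density-adjusted −0.20). The deubiquitinase Uchl5 did not pass the test (log2 fold change −0.10 ± 0.0799, adjusted p 0.307, GC-adjusted 0.53, density-adjusted 0.21). Pomp, which matures the core, lay at a log2 fold change of −0.40 ± 0.0919, and at 0.099 density-adjusted. Akirin2, which brings proteasomes into the nucleus, was depleted, with 6085 input counts against 2855 and 3049 IP counts, at a log2 fold change of −1.08 ± 0.0676. Its 2-fold call and that of Txnl1 were lost under TPM and total-count scaling, as was that of Ubb under TPM.

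Shuttles that carry ubiquitylated proteins to the cap held both the lowest values of the list and a high one. Ubqln1 had 10508 input counts against 2850 and 2795 IP counts, a log2 fold change of −1.94 ± 0.0615, and Rad23b had 18675 and then 5836 and 5765, at a log2 fold change of −1.73 ± 0.0541. Ubqln4, a relative of Ubqln1, went the other way, with 12009 input counts against 26880 and 27370 IP counts, at a log2 fold change of 1.14 ± 0.0530, or 0.69 GC-adjusted. Ddi2 (log2 fold change −1.79) was also depleted, though 58.5% of the exonic bases of Ddi2 overlap Rsc1a1. Among the ubiquitin genes, Ubb had 46463 input counts against 20990 and 22607 IP counts, at a log2 fold change of −1.13 ± 0.0483. The ubiquitin-activating enzymes Uba1 and Uba6 were depleted at log2 fold changes of −1.30 and −1.60. So were Usp14, the deubiquitinase that docks on the cap (log2 fold change −1.22, with 41.9% of exonic bases overlapping Thoc1), the thioredoxin-like cap protein Txnl1 (−1.08) and the unfoldase adaptor Nsfl1c (−1.24). GC-adjusted, Uba6, Usp14 and Txnl1 were at −0.90, −0.65 and −0.46, and density-adjusted Nsfl1c was at −0.85. Ublcp1, a phosphatase of the proteasome, was enriched at a log2 fold change of 1.20 ± 0.106, with 829 input counts against 1927 and 2003 IP counts. Nfe2l1, the transcription factor that drives proteasome genes, had 13654 input counts against 26152 and 26960 IP counts, at a log2 fold change of 0.92 ± 0.0524, just under 2-fold, and was called as enriched under TPM and total-count scaling (1.07 and 1.02), while it was at 0.58 GC-adjusted and 0.70 density-adjusted.

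**Figure D4:**
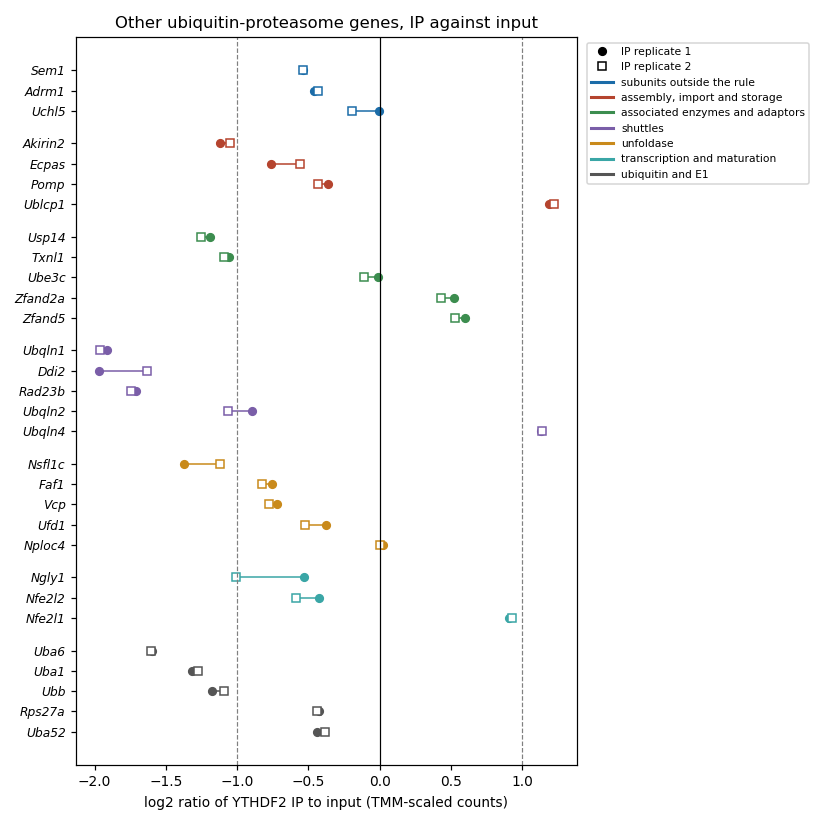
Log2 ratio of each YTHDF2 IP library to the input (x axis, TMM-scaled counts with 0.5 added) for 30 other genes of the ubiquitin and proteasome pathway, by role. Filled circles are IP replicate 1, open squares IP replicate 2, and dashed lines mark 2-fold differences. Ubqln4 and Ublcp1 lie right of the 2-fold line in both libraries, while Ubqln1, Ddi2 and Rad23b lie farthest left.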

How the data were processed

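RIP-seq libraries of E14 ESCs (1 input, 2 YTHDF2 IP) were grouped by their titles. The methods of the study describe antibody added to cleared cell lysate, whereas the labels describe an IP on Trizol-extracted RNA, and the counts do not tell which was done. According to the submitters' processing notes, fastp 0.19.4 and HISAT2 2.2.1 were used with mm10. The deposited values are raw counts per gene from featureCounts 2.0.3 (per the file headers), without read-pair counting or strand. Even numbers made up 61.4% to 64.7% of counts from 1 to 100, as counting both mates gives, so sampling noise exceeds that of the counts. By that tool's defaults, reads mapping to several places or genes were left out.

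The table held 49997 genes and 0 columns of other samples. Of 49632 genes on main chromosomes, 49630 had the coordinates of RefSeq on GRCm38.p6 (1-based). The members Psmb6, Psmb8, Psmb9, Psmd10, Psmg1 and Psme2b also lie on alternate contigs, whose bases were left out of lengths.

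Counts were tested in R 4.3.3 with edgeR 4.0.16 (filterByExpr, TMM factors 0.957 to 1.02, robust quasi-likelihood F test, Benjamini-Hochberg), with 1 residual degree of freedom and a common dispersion of 0.00538. Calls used an adjusted p under 0.05 and a fold over 2. The SE was derived from the fold change and the F statistic. The floor was 3 counts, 0.0811 to 0.0851 CPM. The fit was tested on simulated data. Alternatives were DESeq2 1.42.0, RLE, total-count and TPM scaling, no filter, halved counts, no mitochondrial genes, a dispersion of 0.1, a 1.5-fold threshold, either IP library left out, and GC or exon-density trends (loess, span 0.3) subtracted.

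Named genes were members called, the extremes of each class, the catalytic, receptor, activator, inhibitor and chaperone genes, and the called genes of the pathway list with Adrm1, Sem1, Uchl5, Pomp and Nfe2l1. The values of 2 genes of that list are not reported here. Members and lists were chosen with earlier results of these data known.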

Additional observations from a re-analysis of the deposited data

How the results depend on the processing

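The number of proteasome genes depleted over 2-fold was 14, and it was 3 with a fixed dispersion (Psmd6, Psmd11 and Psmc6) and 28 at a 1.5-fold threshold. Between 11 and 14 of the 14 remained depleted under DESeq2, the other scalings, halved counts, no filter and no mitochondrial genes, and Psme3, Psma3 and Psma1 were those lost. The number enriched was 1, and it was 0 with DESeq2 at an adjusted or unadjusted p, 0 with a fixed dispersion and 2 at a 1.5-fold threshold. The 38 genes lower at any fold change became 3 with a fixed dispersion. The 3 higher at any fold change became 1 with DESeq2, 0 with a fixed dispersion and 6 under TPM, which added Psma4, Psmb5 and Psmd7. Over 2-fold lower at any p were 14, with 13 once the GC trend was subtracted (8 of the 14), 5 once the exon-density trend was and 13 to 16 without either IP library. Leaving out IP replicate 2 added Psmd13 and Psmb11, and Psmb11 has too few counts to give a direction. Over 2-fold higher at any p was 1, with 0 once the GC trend was subtracted and 0 to 1 without either IP library. Of the pathway genes, 11 were depleted and 3 enriched, against 8 and 4 under TPM and 9 and 4 under total counts, and a fixed dispersion left 0 enriched, 4 depleted, 0 higher and 4 lower. At an unadjusted p in that fit (edgeR's likelihood ratio test), 0 proteasome and 2 pathway genes were higher, 0 and 2 of them over 2-fold.

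The median log2 fold change stayed below 0 for all 48 genes and each part under every alternative run. For all 48 it was −0.37 with the exon-density trend subtracted and −0.63 under TPM, and −0.85 to −0.69 without either IP library. For the core it was −0.69 with the GC trend and −0.28 with the exon-density trend subtracted, −0.43 under TPM, −0.49 under total counts, and −0.63 to −0.57 without either IP library. For the cap these were −0.96, −0.46, −0.74, −0.79, and −0.92 to −0.88. For activator and assembly genes they were −0.28 (exon density), −0.45 (TPM), −0.51 (total counts), and −0.63 to −0.57. TPM raised the median of all genes by 0.151 and total counts by 0.0957. With the exon-density trend subtracted, members below 0 went from 43 to 38, and genes that had passed the test as lower changed sign, to 0.36 for Psme2, 0.040 for Psmc5, 0.054 for Psmb3, 0.061 for Psmc3ip and 0.099 for Pomp. Genes near 0 changed sign under other settings. Under TPM and total counts the values were 0.056 and 0.00048 for Psme2b, 0.095 and 0.040 for Psmg4, 0.12 and 0.062 for Psmf1, and 0.14 (adjusted p 0.0227) and 0.081 for Psmd7. Psmd7 was at 0.0094 with no filter, and Uchl5 at 0.053 under TPM. Psme2 and Psmc3ip no longer passed the test with DESeq2, TPM or total counts. The cause of these shifts was not tested. No paired analysis was possible because there was 1 input library with no replicate number of its own, and settings that leave out an IP library have no test. Depth limits Psmb8, Psmb9 and Psmb11, and variation between inputs was not measured.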

Other observations

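The symbols carrying -ps, left out of the members, are 6 pseudogenes by name. Only Psma5-ps passed the filter on low counts, with 290 input counts against 164 and 112 IP counts, a log2 fold change of −1.11 ± 0.260 (edgeR, adjusted p 0.000363), next to −0.89 for Psma5. The other 5 had between 0 and 4 counts in every library.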
